A study of Mus musculus with 2 samples.

Results

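Basement membrane is the thin sheet of matrix on which the endothelium of a vessel rests. The 10 basement membrane genes described here, Col4a1, Col4a2, Col15a1, Col18a1, Lama4, Lamb1, Lamc1, Nid1, Hspg2 and Sparc, were chosen by name, as components or binding partners of the vascular membrane, and were looked up by symbol among the 18309 genes listed in either of the count tables, and all 10 were listed in both. Both tables are droplet single-cell libraries (10x Genomics) of CD45-/CD31+ cells, sorted by FACS with antibodies to the leukocyte antigen CD45 and the endothelial antigen CD31. The first holds normal endothelial cells (NECs) from pooled normal mammary glands of C57BL/6 mice aged 6 to 8 weeks. The second holds tumor endothelial cells (TECs) from pooled E0771 tumors, which had been grown in the mammary gland from a mouse mammary carcinoma line. Strain and age are labelled for the NECs alone, neither library is labelled with a genotype or treatment, and some labels of the NEC library name E0771 or TECs, although its title and the design of the series give normal glands. Each condition is thus 1 library from pooled animals, and no test between conditions was possible.

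The NEC table holds 9047 barcodes with a median of 2973 unique molecular identifiers (UMIs, each standing for 1 captured RNA molecule), and the tumor library 704 barcodes with a median of 14106.5. Cells were kept with at least 200 genes, under 10% mitochondrial UMIs and no UMI of Ptprc, which encodes CD45. A cell was called endothelial when its UMIs of Cdh5 and Pecam1 together were at least 1 and exceeded those of Rhox5, Hmga2 and Krt8. In the TEC library, a cell with at least 3 UMIs of the latter genes and fewer of Cdh5 and Pecam1 was called cancer-like. This gave 5409 normal endothelial cells (median 3071 UMIs), 262 tumor endothelial cells (median 16950) and 185 cancer-like cells (median 62538). Of the cells of the normal library, 569 had at least 1 UMI of the mural genes Rgs5 and Myh11 and more of these than of Cdh5 and Pecam1. Levels are given as UMIs summed over the cells of a group per 1000000 UMIs of that group (CPM), with 95% intervals that cover counting error only. Capture may differ from gene to gene, so levels are compared for the same gene between groups. Shares of UMIs within families of related chains are likewise set side by side between groups only. The libraries shared 3 barcodes, 2 of which were kept.

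Collagen IV forms the covalent network of all basement membranes, and its most widespread form is built from the chains encoded by Col4a1 and Col4a2. Laminins are heterotrimers of an alpha, a beta and a gamma chain that polymerize into a second network and bind integrins on the cell, and Lama4, Lamb1 and Lamc1 encode the chains alpha 4, beta 1 and gamma 1, which form a laminin typical of blood vessels. Nidogen 1 (Nid1) and perlecan (Hspg2) bridge the networks, and perlecan carries heparan sulfate chains that hold growth factors. Collagens XV and XVIII (Col15a1 and Col18a1) are related collagens with chains of glycosaminoglycan that lie at the edge of the membrane, and the C-terminal fragment of collagen XVIII is endostatin. SPARC is a secreted protein that binds collagen and acts on its deposition. In tumors, vascular basement membrane is known to be irregular, with loose attachment to endothelium and pericytes.

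Col4a1 and Col4a2 lie head to head on chromosome 8 of the mouse genome (GRCm38, the release of mm10 that the submitters' notes name). In GENCODE M21, Col4a1 runs from 11198423 to 11312826 on the minus strand and Col4a2 from 11312805 to 11449287 on the plus strand, so that their annotated 5' ends overlap by 22 bases. RefSeq promoter windows, from 250 bases before to 50 bases after the start, were found for 8 of the 10 genes. The windows of this pair are shown because they share 78 bases (chr8:11312777-11312854), printed in capitals, which are read on opposite strands.
Col4a1 (GRCm38.p6, chr8:11312777-11313076, minus strand): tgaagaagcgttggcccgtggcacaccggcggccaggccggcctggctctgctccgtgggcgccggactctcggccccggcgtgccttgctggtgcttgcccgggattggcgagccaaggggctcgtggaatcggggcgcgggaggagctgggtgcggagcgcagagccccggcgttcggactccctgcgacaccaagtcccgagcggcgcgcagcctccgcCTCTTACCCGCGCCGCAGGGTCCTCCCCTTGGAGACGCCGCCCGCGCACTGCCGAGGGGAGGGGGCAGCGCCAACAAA
Col4a2 (GRCm38.p6, chr8:11312555-11312854, plus strand): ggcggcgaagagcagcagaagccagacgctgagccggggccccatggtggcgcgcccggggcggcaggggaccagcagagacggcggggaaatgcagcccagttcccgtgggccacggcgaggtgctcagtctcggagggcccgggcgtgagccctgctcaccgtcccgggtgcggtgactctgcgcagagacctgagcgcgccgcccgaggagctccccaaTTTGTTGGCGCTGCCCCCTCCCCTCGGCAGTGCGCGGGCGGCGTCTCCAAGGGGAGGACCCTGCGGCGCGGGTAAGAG

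Col15a1 (chromosome 4, 47208161 to 47313167, plus strand) and Col18a1 (chromosome 10, 77052178 to 77166548, minus strand) are a related pair. Among the vessel types of normal endothelium named below, arterial-like cells held the most Col18a1 and the least Col15a1. The windows of this pair are shown for that reason. RefSeq gives Col18a1 2 starts. Capitals mark exact matches, on either strand, to the GC box GGGCGG, the CCAAT box CCAAT, the TATA box TATAAA, the AP-1 motif TGANTCA and the hypoxia response core ACGTG, none of which overlapped another in these windows.
Col15a1 (GRCm38.p6, chr4:47207762-47208061, plus strand): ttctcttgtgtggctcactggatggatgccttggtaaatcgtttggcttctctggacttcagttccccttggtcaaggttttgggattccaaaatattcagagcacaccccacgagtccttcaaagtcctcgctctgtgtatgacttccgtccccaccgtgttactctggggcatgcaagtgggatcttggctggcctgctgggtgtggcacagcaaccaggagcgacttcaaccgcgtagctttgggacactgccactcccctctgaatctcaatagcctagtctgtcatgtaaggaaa
Col18a1, first start (GRCm38.p6, chr10:77166481-77166780, minus strand): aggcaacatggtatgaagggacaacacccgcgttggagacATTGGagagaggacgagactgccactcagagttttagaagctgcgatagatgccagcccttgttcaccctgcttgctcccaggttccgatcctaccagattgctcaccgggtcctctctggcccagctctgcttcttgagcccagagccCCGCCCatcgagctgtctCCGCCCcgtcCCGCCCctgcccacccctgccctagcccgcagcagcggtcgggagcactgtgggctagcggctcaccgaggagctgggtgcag
Col18a1, second start (GRCm38.p6, chr10:77113656-77113955, minus strand): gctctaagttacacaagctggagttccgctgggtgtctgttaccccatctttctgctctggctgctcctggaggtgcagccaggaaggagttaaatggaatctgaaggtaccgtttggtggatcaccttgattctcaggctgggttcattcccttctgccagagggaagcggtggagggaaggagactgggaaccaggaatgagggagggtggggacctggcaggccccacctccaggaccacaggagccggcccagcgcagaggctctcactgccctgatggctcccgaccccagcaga
The first window of Col18a1 held 3 GC boxes and 1 CCAAT box, and the second held none of the 5 motifs, as did the window of Col15a1. The window of Col4a1 held 1 GC box and that of Col4a2 held 3, each with 1 CCAAT box. A GC box was present in 35.7% and a CCAAT box in 37.4% of all 32851 promoter windows, so these letters are common, and a match is a description and not a binding site.

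The other genes lie on chromosomes 10 (Lama4, 38965515 to 39110188), 12 (Lamb1, 31265234 to 31329644), 1 (Lamc1, 153218922 to 153332786), 13 (Nid1, 13437551 to 13512269), 4 (Hspg2, 137468769 to 137570630) and 11 (Sparc, 55394500 to 55423183). Annotated antisense genes overlap Col4a1, Col4a2, Col15a1 and Nid1, and the protein-coding Slc19a1 overlaps Col18a1. Whether the counting used strand is not given in the sources used here, so reads of overlapping genes may not be told apart.

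The groups were checked by markers first. The sum of 10 endothelial markers was 8293 CPM in tumor endothelium and 8299.9 CPM in normal endothelium, with all 10 present in both, against 121 CPM in cancer-like cells, where Erg was at 0, and 2 of the 10, Cdh5 and Pecam1, had been used to choose the cells. Of 13 mural markers, 10 were present in tumor endothelium at 53.7 CPM together (Cspg4, Cnn1 and Vtn at 0, Kcnj8 the most abundant), against 944 CPM for 13 of 13 in normal endothelium, where Acta2 led. The sum of 9 fibroblast markers was 7.73 CPM in tumor endothelium, led by Col3a1 with Lum and Dpt at 0, and 123 CPM in normal endothelium, led by Dcn. A list of 12 salivary gland genes came to 3408 CPM in normal endothelium, led by Dcpp1, and was at 0 throughout in tumor endothelium. In the 73 normal cells in which these genes made up over 10% of the UMIs, Col4a1 was at 22.0 CPM, Col18a1 at 2.999 CPM and Sparc at 39.6 CPM. In 589 normal cells with Epcam that had no UMI of Cdh5 or Pecam1 and were not mural, each of the 10 genes was between 2.21 and 54.7 CPM.

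Some endothelial cells lay at the edge of the rule. In the NEC library, 316 had a single UMI of Cdh5 and Pecam1, with Col4a1 at 704 CPM and Sparc at 1857 CPM, against 899 and 2021 CPM in the 5093 cells with 2 or more. The 428 normal cells just outside the rule, with none of the 5 rule genes, had Col4a1 at 452 CPM and Sparc at 2158 CPM. In the TEC library, 14 endothelial cells had a single UMI, with Col4a1 at 391 CPM and Sparc at 1463 CPM, against 2297 and 5800.0 CPM in the other 248. Leaving out all cells with a single UMI changed neither count of genes in the comparison of the endothelia.

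Tumor endothelium carried more transcript of most of the 10 genes than normal endothelium did. Of the 10 genes, 7 were at 2-fold or more higher levels in tumor endothelium and 0 at 2-fold or more lower levels. Among all 8884 genes with at least 10 CPM in either group, 10.7% were that much higher and 19.7% that much lower. The median log2 ratio was 1.16 for the 10 genes and -0.12 for all tested genes. Both chains of collagen IV, the laminin chains beta 1 and gamma 1, nidogen 1, collagen XVIII and SPARC made up the 7, while Lama4, Col15a1 and Hspg2 lay within 2-fold. Relative to the median of all tested genes the ratios are larger by 0.12, which also brings Lama4 past the limit. The plot of levels by cell group shows this order of the groups gene by gene. With only cells under 5% mitochondrial UMIs (3743 normal and 195 tumor endothelial cells), 4 of the 10 genes remained past 2-fold, and Col4a2 (0.79), Lamb1 (0.94) and Nid1 (0.88) fell under it. Interferon response genes also differed between the libraries, with a sum over 14 genes of 2405 CPM in normal and 8192 CPM in tumor endothelium (led by Isg15 and Cxcl9), as did 15 capillary markers (27602 and 5632 CPM, both led by Fabp4), 15 mitotic genes (138 and 796 CPM, led by Top2a and Birc5) and 10 immune genes (72.1 and 484 CPM, both led by Cd74, with Ptprc at 0 by the rule), and the part of these differences in the result was not tested. With 1900 UMIs drawn from every cell, to even out the depth, the counts were again 7 and 0.

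**Figure D1:**
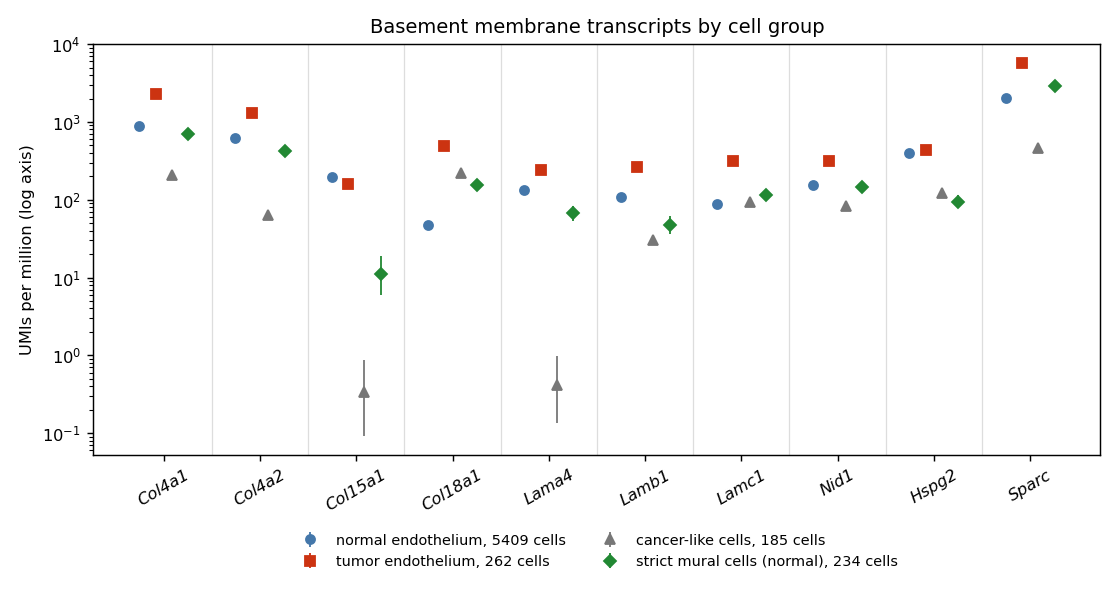
Level of the 10 basement membrane genes (UMIs per 1000000, log axis) in normal endothelium, tumor endothelium, cancer-like cells and strict mural cells of the normal library; points are sums over the cells of 1 library and bars are 95% Poisson intervals for counting error. Tumor endothelium (squares) is the highest group for every gene except Col15a1, and Lama4 and Col15a1 fall to under 1 CPM in cancer-like cells.

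Both chains of collagen IV were higher in tumor endothelium. Col4a1 was at 892 CPM (879 to 905) in normal endothelium and at 2258 CPM (2215 to 2301) in tumor endothelium, a log2 ratio of 1.34 (1.30 to 1.37). Col4a2 was at 617 CPM (606 to 627) and 1294 CPM (1262 to 1328), a log2 ratio of 1.07 (1.03 to 1.11). Of these ratios, that of Col4a1 was the larger, and the intervals do not overlap.

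Among the laminin chains, the gamma chain had the largest ratio. Lamc1, which enters nearly all laminins of vessels, was at 88.7 CPM (84.6 to 92.9) in normal and 310.1 CPM (294 to 326) in tumor endothelium, a log2 ratio of 1.81 (1.71 to 1.91). Lamb1 was at 109.9 and 262 CPM, a log2 ratio of 1.25 (1.15 to 1.35). Lama4 was at 132 and 245 CPM, a log2 ratio of 0.89 (0.79 to 0.99) whose interval ends just under 2-fold. The chains gamma 1, beta 1 and alpha 4 were thus higher in tumor endothelium by 3.50-fold, 2.38-fold and 1.85-fold.

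The linkers of the networks differed from each other. Nid1 was at 156 CPM in normal and 317 CPM in tumor endothelium, a log2 ratio of 1.02 (0.93 to 1.11) that lies on the 2-fold limit. Hspg2 was at 401 and 433 CPM, a log2 ratio of 0.11 (0.04 to 0.18). The ratio of perlecan changed sign under 4 of 15 other ways of processing, from -0.24 to 0.42.

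The widest gap within the list lay between collagens XV and XVIII. Col18a1 was at 47.8 CPM (44.8 to 50.9) in normal and 496 CPM (476 to 517) in tumor endothelium, a log2 ratio of 3.38 (3.27 to 3.49) and a 10.4-fold difference. Col15a1 was at 196 CPM (189.9 to 202) in normal and 158 CPM (147 to 170.3) in tumor endothelium, with a log2 ratio of -0.31 (-0.42 to -0.19) that did not reach 2-fold and changed sign under 3 of 15 other settings. Sparc, at 2015 CPM (1995 to 2035) in normal and 5709.6 CPM (5641 to 5779) in tumor endothelium, had a log2 ratio of 1.503 (1.48 to 1.52).

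Normal endothelium is a mixture, and the genes were distributed unevenly over its vessels. The 5409 cells were clustered without the 10 genes and 5 further lists of matrix genes, and clusters were named by markers of vessel types. This gave 1694 capillary-like cells in 3 clusters (led by Car8, Timp4, Lpl, Meis2 and Tbxa2r), 708 arterial-like cells in 2 (Gja5, Bmx, Sema3g and Gja4 in one, S100a4, Nebl and Gprc5a in the other), 484 venous-like cells in 3 (Ackr1, Lbp, Selp, Sele) and 100 high endothelial venule (HEV)-like cells (Glycam1, Fut7), HEVs being the venules of lymph nodes through which lymphocytes enter. One of the capillary-like clusters, of 395 cells, was also led by the heat shock genes Hspa1a and Hspa1b, and a venous-like cluster of 115 cells had Htr2b and Fndc1 among its leading genes. That cluster, the capillary-like cluster of 473 cells with Meis2 and Tbxa2r, the arterial-like cluster of 237 cells and the normal interferon-like cluster had no marker of their own name among their top 10 genes. The remaining cells were interferon-like (624, with Foxf1), mural-like (176), mitotic-like (57, with Krt14 and Krt5 among the leading genes) or in 4 unnamed clusters. Of the latter, a cluster of 779 cells had 9 capillary markers raised and one of 222 cells had 6, more than the 4 of the capillary-like cluster of 473 cells. They stayed unnamed because another list had more markers among their top 10 genes, the salivary Dcpp1, Smr3a and Bpifa2 in the first and the interferon gene Cxcl9 in the second. The vessel names are rebuilt from markers and rest on 1 library.

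Of the 10 genes, 8 were 2-fold or more apart between the highest and the lowest of the 4 vessel types, against 44.1% of 9294 tested genes. Collagen IV, Lama4, Lamb1, Nid1, Hspg2 and Sparc were highest in capillary-like cells. Col4a1 was at 1348 CPM in capillary-like, 809.9 in HEV-like, 504 in arterial-like and 293 CPM in venous-like cells, and Col4a2 was at 952, 559.6, 319.9 and 194 CPM in the same order. Lamb1 was at 122 CPM in capillary-like, 74.5 in HEV-like, 45.3 in venous-like and 15.4 CPM in arterial-like cells, a range of 7.95-fold. Arterial-like cells were the lowest for Lama4 (50.8 CPM, against 198 in capillary-like, 75.5 in venous-like and 66.8 in HEV-like cells), Nid1 (57.9 CPM, against 172, 170.3 and 121) and Hspg2 (155 CPM, against 511, 221 and 312). Intervals of the ratio included 0 between venous-like and HEV-like and between HEV-like and arterial-like cells for Lama4, and between capillary-like and venous-like cells for Nid1.

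Compared in pairs, arterial-like cells had 7 of the 10 genes 2-fold or more lower than capillary-like cells (5.75% of 8586 tested genes were) and 1, Col18a1, higher (6.24% were), the genes within 2-fold being Lamc1 and Sparc. Venous-like cells had 5 lower than capillary-like cells (6.64% of 8794), namely both chains of collagen IV, Lama4, Lamb1 and Hspg2, and Col18a1 higher (7.76%). Arterial-like cells had Col15a1, Lamb1 and Nid1 lower than venous-like cells (8.25% of 8772) and Col18a1 higher (7.66%). HEV-like cells had both chains of collagen IV and Col15a1 higher than venous-like cells (5.02% of 8748) and 0 lower (16.5%). Markers of other cells also differed between the vessel types. The sum over 9 fibroblast genes was 508 CPM in venous-like cells (all 9 present, led by Dcn at 239 CPM), against 35.4 CPM in arterial-like cells (led by Pi16, with Lum at 0), 18.1 CPM in capillary-like cells (led by Col3a1, with Mfap5 at 0) and 6.68 CPM in HEV-like cells (led by Col3a1, with 6 of the 9 at 0, Col1a1 and Col1a2 among them). The sum over 13 mural genes was 496 CPM in venous-like (led by Tagln at 409 CPM), 305 in arterial-like (Acta2), 229 in capillary-like (Rgs5) and 47.8 CPM in HEV-like cells (Tagln, with Kcnj8, Abcc9, Cnn1 and Higd1b at 0). The 12 salivary genes, led by Bpifa2 throughout, summed to 2720.2 CPM in capillary-like, 1434 in arterial-like, 1338 in venous-like and 683 CPM in HEV-like cells. The part of these markers in the differences between vessel types was not tested.

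Lamc1 and Sparc were the most even. Lamc1 ranged from 65.4 CPM in arterial-like to 112 CPM in HEV-like cells (1.72-fold), with 75.5 in venous-like and 93.3 CPM in capillary-like cells. Sparc ranged from 1133 CPM in HEV-like to 2255 CPM in capillary-like cells (1.99-fold), and venous-like (1355 CPM) and arterial-like cells (1357 CPM) could not be told apart. For Lamc1, neither HEV-like and capillary-like nor venous-like and arterial-like cells differed beyond counting error.

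Arterial-like cells were the highest in Col18a1 and the lowest in Col15a1, and venous-like cells held both. Col18a1 was at 176 CPM (159.8 to 194) in arterial-like and 5.28 CPM (3.35 to 7.93) in capillary-like cells, the latter on 23 UMIs and no higher than in the Epcam cells (6.36 CPM), so that the size of the difference, 33.3-fold or a log2 ratio of 5.06 (4.45 to 5.73), is uncertain. It was at 54.3 CPM in venous-like and 32.3 CPM in HEV-like cells. Col15a1 was at 357 CPM (319 to 398) in HEV-like and 10.4 CPM (6.74 to 15.4) in arterial-like cells, a 34.3-fold difference, with 160.0 CPM in venous-like and 159 CPM in capillary-like cells. Col15a1 was also uneven among the capillary-like clusters, at 358 CPM in the cluster with Meis2 and Tbxa2r and at 71.3 and 52.6 CPM in the others. When cells were sorted by the marker list with the most UMIs and not clustered, the log2 ratio of Col18a1 in arterial-like over capillary-like cells was 2.59 in place of 5.06, with 73 arterial-like and 5167 capillary-like cells.

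Cells outside the named vessels added to the spread. In the unnamed clusters of 296 and 269 cells led by Penk, Pacsin1 and Tmem35a, Lamb1 was at 333 and 248 CPM, Col15a1 at 528 and 444 CPM and Hspg2 at 808 and 542 CPM. The cluster of 296 cells was the highest normal cluster for these genes. The venous-like cluster of 115 cells had the most Nid1 (319.6 CPM) and the least Col4a1 (185 CPM) and Sparc (814 CPM) of the 16 normal clusters. The heatmap of levels across endothelial clusters shows these departures.

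**Figure D2:**
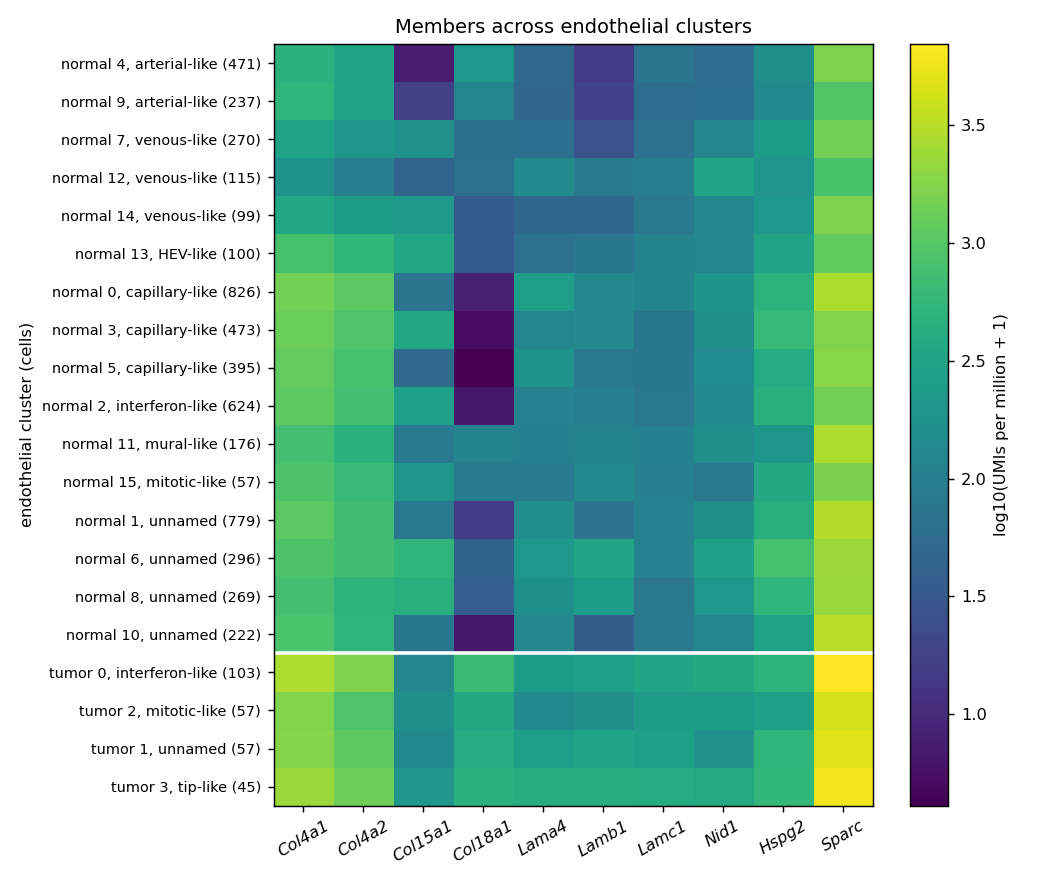
Level of each gene, as log10(UMIs per 1000000 + 1), in the 16 clusters of normal endothelium (above the white line) and the 4 clusters of tumor endothelium (below it), with the number of cells of each cluster in brackets. Col15a1 is darkest and Col18a1 brightest of the normal clusters in arterial-like cluster 4 (6.39 and 215 CPM), while the tumor clusters hold both genes.

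With the vessels separated, the excess in tumor endothelium depended on the reference. Over arterial-like cells all 10 genes were 2-fold or more higher (14.5% of the 8759 tested genes were), over venous-like cells 7 (12.6% of 8918) and over capillary-like cells 4 (13.1% of 8839), and 0 were 2-fold or more lower in each of these comparisons (21%, 19.2% and 21.2% of the tested genes were), which share the tumor cells. HEV-like cells were not used as a reference, so these counts do not cover them. Their level of Col15a1, 357 CPM, lay above the 158 CPM of tumor endothelium. The 4 that remained over capillary-like cells were Col18a1 (log2 ratio 6.55, 5.96 to 7.21, over a level no higher than in the Epcam cells), Lamc1 (1.73, 1.57 to 1.90), Sparc (1.34, 1.31 to 1.37) and Lamb1 (1.10, 0.95 to 1.25). The log2 ratio over capillary-like cells was 0.74 (0.70 to 0.79) for Col4a1, 0.44 (0.39 to 0.50) for Col4a2, 0.88 (0.75 to 1.01) for Nid1 and 0.31 (0.18 to 0.44) for Lama4. Col15a1 did not differ beyond counting error from capillary-like cells (log2 ratio -0.005, -0.16 to 0.15) or venous-like cells (-0.01, -0.20 to 0.17), although its level in tumor endothelium, 158 CPM, lay under that of the capillary-like cluster with Meis2 and Tbxa2r and above those of the other capillary-like clusters. Hspg2 was lower in tumor endothelium than in capillary-like cells (-0.24, -0.33 to -0.15). With the unnamed clusters of 779 and 222 cells added to the capillary-like cells (2695 cells in all), these 4 genes again passed 2-fold, and the log2 ratio was 0.90 for Col4a1, 0.63 for Col4a2, 0.95 for Nid1, 0.31 for Col15a1 and -0.12 for Hspg2. Over arterial-like cells the ratios ran from 1.48 (1.32 to 1.64) for Hspg2 and 1.49 (1.34 to 1.65) for Col18a1 to 4.09 (3.61 to 4.599) for Lamb1. The genes within 2-fold over venous-like cells were Col15a1, Nid1 (0.89, 0.73 to 1.06) and Hspg2 (0.97, 0.83 to 1.11). Of the 395 Nid1 UMIs of venous-like cells, 159 lay in the cluster of 115 cells, where Nid1 was at 319.6 CPM.

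**Figure D3:**
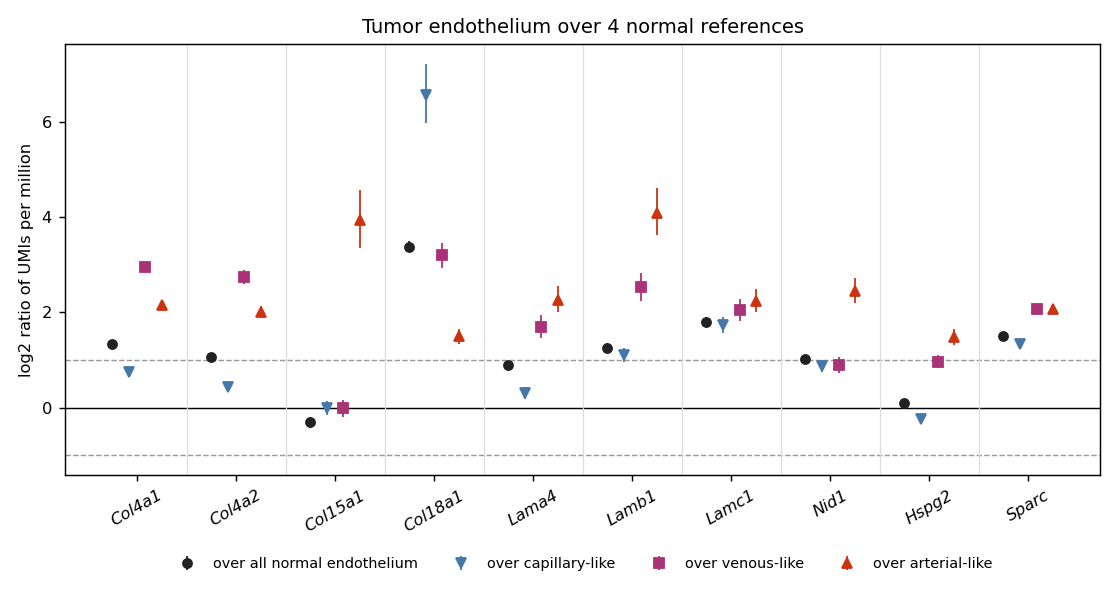
log2 ratio of the level in tumor endothelium over that in all normal endothelium and in its capillary-like, venous-like and arterial-like cells for the 10 genes, with exact 95% intervals for counting error; dashed lines mark 2-fold. The values of Lamb1, Lamc1, Sparc and Col18a1 lie above 2-fold over every reference shown, although the interval of Lamb1 over capillary-like cells starts at 0.95. Col18a1 is at 1.49 over arterial-like and, against a level no higher than in the Epcam cells, at 6.55 over capillary-like cells.

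The tumor endothelial cells formed 4 clusters: interferon-like (103 cells), mitotic-like (57), tip-like (45, led by F2rl2, Pgf and Egln3 with Adm) and an unnamed cluster of 57 cells with a median of 2198 UMIs. Tip cells lead the growth of vessel sprouts, and 6 of the 10 tip markers were raised in the tip-like cluster. The interferon-like cluster also had 3 arterial, 3 venous and 2 capillary markers raised, and their part in its values was not tested. For Col4a1, Col18a1, Lamc1 and Sparc the lowest of the 4 tumor clusters lay above the highest of the 16 normal clusters, which was so for 5.86% of the tested genes. For Sparc the tumor clusters ran from 4204 to 6982 CPM and the normal clusters from 814 to 3160.4 CPM, and for Lamc1 from 245 to 404 CPM against 57.4 to 117 CPM. For Col15a1 and Hspg2 no tumor cluster lay above all normal clusters. For Lamb1, 1 of the 4 did, and the unnamed normal cluster of 296 cells (333 CPM) lay above tumor endothelium as a whole (262 CPM).

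Within tumor endothelium Lama4, Lamb1, Lamc1, Hspg2 and Col15a1 were higher in tip-like than in interferon-like cells beyond counting error, both chains of collagen IV, Col18a1 and Sparc were lower, and Nid1 did not differ beyond it. Lama4 was at 419 CPM (379 to 463) in tip-like, 261 CPM in unnamed, 245 CPM in interferon-like and 144 CPM in mitotic-like cells, a log2 ratio of 1.54 (1.31 to 1.78) of tip-like over mitotic-like cells. Lamb1 was at 418, 303, 271 and 159 CPM in the same order, with a log2 ratio of 1.40 (1.17 to 1.62). These were the 2 of the 10 genes at 2-fold or more in tip-like over mitotic-like cells (9.41% of 8302 tested genes), and 0 were lower (8.19%). The mural gene Kcnj8 stood among the first 10 genes of the tip-like cells, and its part in these values was not tested. Col4a1 was at 2815 CPM in interferon-like cells (against 2272 in tip-like, 1809 in unnamed and 1697 CPM in mitotic-like cells) and Col18a1 at 651 CPM (against 457, 409.7 and 361). Between tip-like and interferon-like cells 0 of the 10 genes reached 2-fold, where 5.81% of 8136 tested genes were higher and 5.94% lower in tip-like cells.

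Within families of related chains, the shares of UMIs changed with the vessel. Of the UMIs of Col15a1 and Col18a1 together, Col18a1 held 19.6% (18.5 to 20.7%) in normal endothelium and 75.8% (74.2 to 77.3%) in tumor endothelium. It held 3.22% in capillary-like, 8.29% in HEV-like, 25.4% in venous-like and 94.4% in arterial-like cells, so that tumor endothelium lay between the venous-like and the arterial-like cells. The tumor clusters ranged from 68.8% (mitotic-like) to 82.9% (interferon-like).

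Lama4 and Lamb1 held larger shares of their families in tumor than in normal endothelium. Lama4 held 56.3% (54.8 to 57.7%) of the UMIs of all laminin alpha chains in normal and 77.2% (74.99 to 79.3%) in tumor endothelium, with 87.5% in tip-like cells and 23.6% in arterial-like cells. It held 42.0% in HEV-like, 52.7% in venous-like and 63.2% in capillary-like cells. The capillary-like clusters of 826, 395 and 473 cells stood at 71.6%, 70.1% and 43.4%. The other tumor clusters stood at 72.0% (interferon-like), 73.1% (mitotic-like) and 76.6% (unnamed), near the former 2. Lama5, which encodes the other main alpha chain of vascular laminins, held 28.6% and 20.3% in normal and tumor endothelium. Lamb1 held 43.8% (42.5 to 45.2%) of the beta chain UMIs in normal and 84.8% (82.8 to 86.6%) in tumor endothelium, with 5.81% in arterial-like, 21.1% in venous-like, 46.2% in capillary-like and 51.1% in HEV-like cells. In the unnamed normal clusters of 296 and 269 cells, Lamb1 held 76.4% and 70.3%, and in the tumor interferon-like cluster 78.3%. Its counterpart Lamb2, not one of the 10 genes, was at 139.7 CPM in normal and 47.0 CPM in tumor endothelium. Lamc1 held 96.8% of gamma chain UMIs in normal and 99.4% in tumor endothelium.

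The share of Nid1 among the nidogens was 85.2% (84.0 to 86.4%) in normal and 58.8% (56.8 to 60.7%) in tumor endothelium, although Nid1 itself was higher there. Nid2 was at 27.0 CPM in normal and 222 CPM in tumor endothelium (log2 ratio 3.04, 2.89 to 3.19). In the normal vessel types the share ran from 79.0% (HEV-like) to 94.5% (venous-like). Col4a1 held 59.1% (58.6 to 59.7%) of collagen IV UMIs in normal and 63.6% (62.8 to 64.3%) in tumor endothelium. Between the 4 normal vessel types this share stayed between 58.6% and 61.2%, and the 4 tumor clusters lay between 61.9% and 65.0%.

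**Figure D4:**
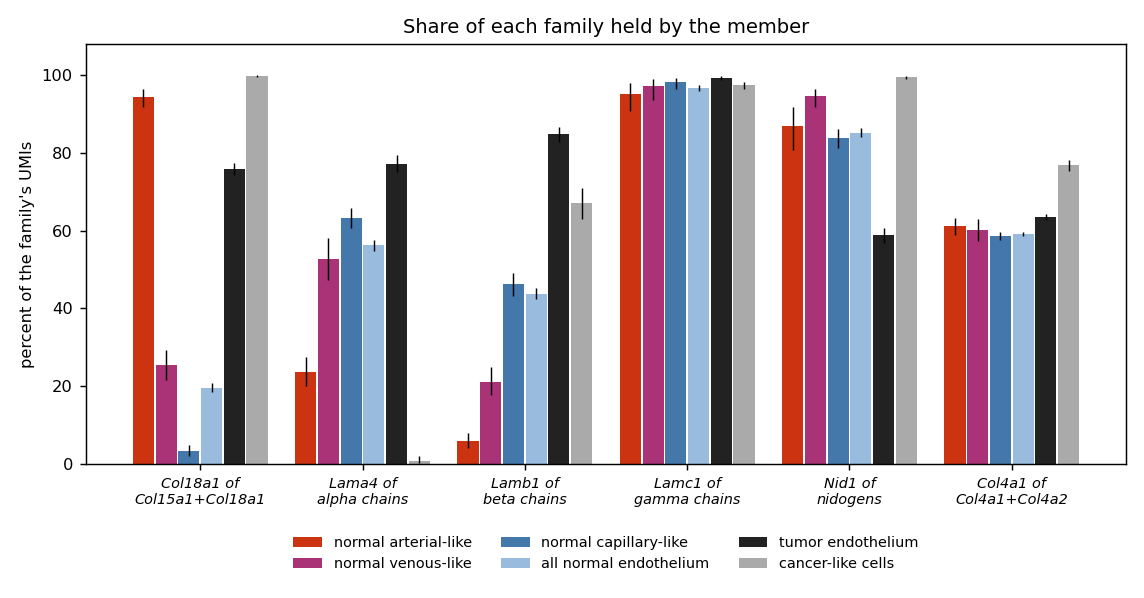
Percent of the UMIs of each chain family held by the member named below the bars, in normal vessel types, all normal endothelium, tumor endothelium and cancer-like cells, with Clopper-Pearson 95% intervals. The share of Lamb1 spans 5.81% in arterial-like to 84.8% in tumor endothelial cells, while the share of Col4a1 stays between 58.6% and 63.6% in every endothelial group shown.

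The cancer-like cells of the TEC library had less of each of the 10 genes than the tumor endothelium beside them. All 10 genes were 2-fold or more lower (20.9% of 8723 tested genes were), and 0 were higher (16.5% were). Lama4 and Col15a1 were nearly absent, with 5 UMIs (0.420 CPM, 0.136 to 0.980) and 4 UMIs (0.336 CPM, 0.0915 to 0.860) in 11908383 UMIs, against 245 and 158 CPM in tumor endothelium. Col4a1 was at 209 CPM (log2 ratio -3.43, -3.50 to -3.37) and Col4a2 at 63.0 CPM (-4.36, -4.47 to -4.25), so that Col4a1 held 76.8% of collagen IV UMIs. Sparc was at 463 CPM (-3.62, -3.67 to -3.58) and Lamb1 at 30.7 CPM (-3.09, -3.27 to -2.92).

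The genes with the smallest gap were Col18a1, Lamc1, Hspg2 and Nid1. Col18a1 was at 218 CPM (log2 ratio -1.19, -1.27 to -1.10), Lamc1 at 93.1 CPM (-1.74, -1.85 to -1.62), Hspg2 at 121 CPM (-1.84, -1.94 to -1.75) and Nid1 at 82.6 CPM (-1.94, -2.06 to -1.82). Lama5 held 98.5% (97.1 to 99.3%) of alpha chain UMIs in the cancer-like cells and Lama4 0.858%. These cells were also lower in Nid2 (0.336 against 222 CPM), Fn1 (0.588 against 258), Thbs1 (0.252 against 260.0) and Sparcl1 (3.11 against 710.3), and higher in the interstitial collagen genes Col3a1 (238 against 3.65), Col5a1 (63.7 against 1.29) and Col6a1 (431 against 10.1). Of the 14 interstitial matrix genes, 7 were tested and 5 were 2-fold or more higher and 2 lower (16.5% and 20.9% of all tested genes were). With at least 10 UMIs of the 3 rule genes required, 160 cancer-like cells remained and 10 of 10 genes were again 2-fold or more lower. The 16 cells just under the limit of 3 UMIs had Col4a1 at 149 CPM and Col18a1 at 223 CPM, and the 10 cells just over it, with 3 or 4 UMIs, at 707 and 669 CPM.

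Mural cells, the pericytes and smooth muscle cells that wrap vessels and share their basement membrane, were compared with the 5215 normal endothelial cells that did not meet the mural rule. Of the 10 genes, 1 was 2-fold or more higher (13.4% of 9379 tested genes were) and 3 were lower (14% were). The mural group was mixed, since 194 of its 569 cells also met the endothelial rule and 113 had more UMIs of the epithelial genes Epcam, Krt8, Krt18, Krt14 and Krt5 than of Rgs5 and Myh11, and its sum of 12 salivary genes was 74796 CPM. A stricter group of 234 mural cells, chosen after these values had been seen, had at least 3 UMIs of Rgs5 and Myh11, more of these than of the epithelial genes, and did not meet the endothelial rule. Its 13 mural markers summed to 23043 CPM, led by Acta2, its endothelial markers to 431 CPM with Erg at 0, and its fibroblast markers to 1531 CPM, led by Col3a1 with Pi16 at 0. The mural list includes Rgs5 (2947 CPM) and Myh11 (1657 CPM), and the endothelial list Cdh5 and Pecam1, by which the cells were chosen, so that these sums are in part set by the rule. The part of the fibroblast transcripts in the values below was not tested.

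Col18a1 was the gene at 2-fold or more higher levels in mural cells. It was at 89.4 CPM in the mural group and 155 CPM in the strict one, against 44.2 CPM in endothelium, with log2 ratios of 1.02 (0.83 to 1.197) and 1.81 (1.57 to 2.05). Under 4 of 12 other settings its ratio in the mural group fell under 2-fold, the lowest being 0.42 with all cells that had a UMI of Rgs5 or Myh11. Col15a1 was lower in both groups, at 17.8 and 11.2 CPM against 205 CPM, with log2 ratios of -3.52 (-3.88 to -3.19) and -4.19 (-5.10 to -3.41). Hspg2 was likewise lower, at 86.9 and 94.1 CPM against 415 CPM, with log2 ratios of -2.26 (-2.42 to -2.10) and -2.14 (-2.43 to -1.87).

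Lama4 and Lamb1 were near the limit of 2-fold. The log2 ratio of Lama4 was -1.25 (-1.45 to -1.05) in the mural group and -0.99 (-1.33 to -0.66) in the strict group, and that of Lamb1 -0.999 (-1.204 to -0.80) and -1.24 (-1.65 to -0.85). In the strict group 1 gene was again higher (14.8% of 9338 tested genes were) and 3 lower (18.6%), with Lamb1 among them in place of Lama4. Lamb1 was at 82.2 CPM in strict mural cells with more Rgs5 than Myh11 and 17.6 CPM in the others. Sparc changed direction with the choice of cells, from a log2 ratio of -0.14 (-0.18 to -0.10) in the mural group to 0.55 (0.50 to 0.60) in the strict group, where it was at 4431 CPM in cells with more Rgs5 and 1582 CPM in cells with at least as much Myh11. Col4a1 (-0.37, -0.47 to -0.27), Col4a2 (-0.57, -0.71 to -0.44), Lamc1 (0.40, 0.14 to 0.66) and Nid1 (-0.08, -0.32 to 0.14) stayed within 2-fold in the strict group.

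Other matrix genes were compared between tumor and normal endothelium in 5 lists, whose counts stand beside the 10.7% of all tested genes that were 2-fold or more higher and the 19.7% that were lower. Of 21 genes of collagen processing and crosslinking, 16 were tested in tumor over normal endothelium and 6 were 2-fold or more higher and 0 lower, with a median log2 ratio of 0.87. Serpinh1, the collagen chaperone HSP47, was at 452 CPM in normal and 1304 CPM in tumor endothelium (1.53, 1.48 to 1.58). Colgalt1, which adds galactose to collagen, was at 61.5 and 142 CPM (1.202, 1.06 to 1.34). Loxl4, a lysyl oxidase, was at 0.397 and 11.2 CPM, and Lox, with 147 UMIs in normal endothelium, had 0 in tumor endothelium, which allows up to 0.644 CPM.

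Of 26 other components of basement membranes, 22 were listed in both tables and 11 were tested, of which 2 were 2-fold or more higher (Nid2 and Vwa1, named after their values were seen) and 5 lower. Hemicentin 1 (Hmcn1) was at 22.5 CPM in normal and 0.644 CPM in tumor endothelium (-5.13, -7.41 to -3.57). Of 17 receptors, 13 were tested and 5 were higher and 5 lower. The integrin subunit Itgb3, part of the vitronectin receptor, was at 9.43 and 100.5 CPM (3.41, 3.17 to 3.66), and Itgb5 at 42.9 and 1.07 CPM (-5.32, -6.95 to -4.09). Among 14 genes of the interstitial matrix, 10 were tested and 1 was higher and 7 lower, with elastin (Eln) at 136 and 1.07 CPM, Dcn at 46.3 and 0.215 CPM and Fbn1 at 45.4 and 1.07 CPM. These counts depended on the reference. Over capillary-like cells 5 were tested and 3 were higher and 2 lower (13.1% and 21.2% of all tested genes were). Over venous-like cells 12 were tested and 1 was higher and 9 lower (12.6% and 19.2%), and over arterial-like cells 6, 1 and 4 (14.5% and 21%). The fibroblast marker sum was also lower in tumor endothelium, as given above, and its part in these values was not tested. Of 12 matricellular and endothelial matrix genes, 8 were tested and 2 were higher and 1 lower, with tenascin C (Tnc) at 7.50 and 61.0 CPM (3.02, 2.73 to 3.32).

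The members were seen together in single cells. Since depth differed between the groups, 1900 UMIs were drawn at random from every cell that had as many, which left 4273 normal and 240 tumor endothelial cells and 184 cancer-like cells, and 1136, 22 and 1 were too shallow. A tumor endothelial cell then held a median of 20 UMIs of the 10 genes and UMIs of 6 of them, against 8 UMIs and 4 genes in normal endothelium. The median was 10 UMIs in capillary-like and 4 in both arterial-like and venous-like cells, 8 in HEV-like cells and 2 in cancer-like cells, and 0 in the Epcam and salivary cells. The middle 50% of cells lay between 15 and 29 UMIs in tumor endothelium and between 7 and 14 in capillary-like cells, and the 5th to 95th percentiles, 6.95 to 47.1 and 4 to 22, overlapped. For this draw 561 of the 1694 capillary-like, 126 of the 708 arterial-like, 38 of the 484 venous-like and 7 of the 100 HEV-like cells were too shallow.

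**Figure D5:**
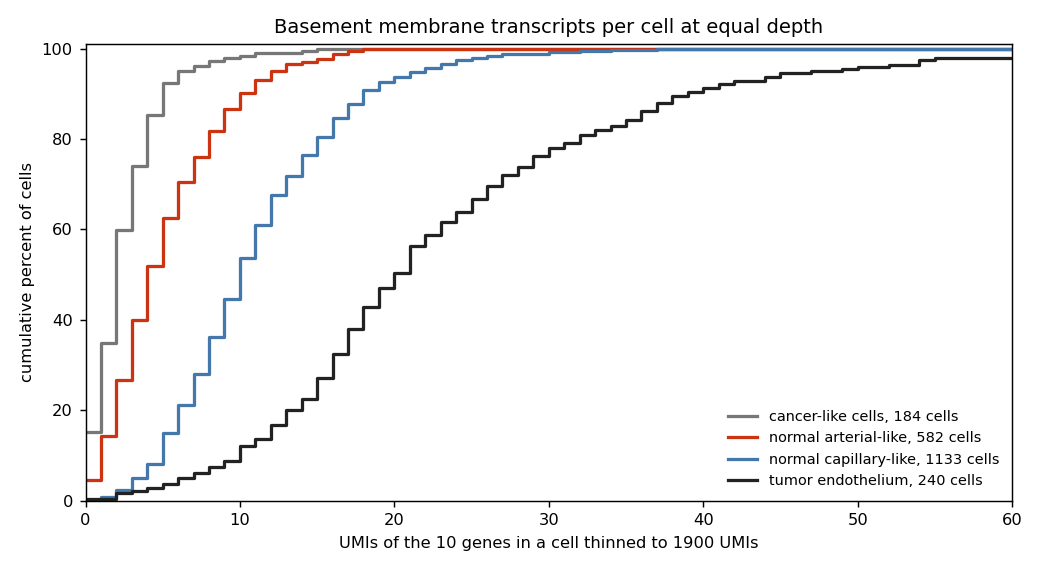
Cumulative percent of cells by the number of UMIs of the 10 genes among 1900 UMIs drawn from each cell, for cancer-like, normal arterial-like, normal capillary-like and tumor endothelial cells; cells of 1 library are not replicates, and the axis ends at 60 UMIs. The medians are 2, 4, 10 and 20 UMIs.

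At this depth, Col18a1 was detected in 60.4% of tumor endothelial cells (86.6% unthinned), 23.4% of arterial-like cells (32.1% unthinned) and 0.530% of capillary-like cells (0.885% unthinned), against 0.694% of the Epcam cells (2.72% unthinned) and 1.52% of the salivary cells (6.85% unthinned), whose medians were 10873 and 27355 UMIs before thinning. The capillary-like share was thus no higher than in these non-endothelial cells, and the source of their Col18a1 UMIs was not tested. Col15a1 was detected in 20.8% of tumor endothelial (51.5% unthinned), 23.6% of normal endothelial (30.9% unthinned) and 2.06% of arterial-like cells (2.54% unthinned), against 1.04% of the Epcam cells (2.04% unthinned). Among tumor endothelial cells with Col15a1, 66.0% also had Col18a1, and among those without it 58.9% did. In normal endothelium these shares were 4.26% and 6.74%. Cells with both collagens were thus 33 of 240 in tumor and 43 of 4273 in normal endothelium. For the head-to-head pair whose promoter windows are printed above, Col4a2 was detected in 87.4% of tumor endothelial cells with Col4a1 and 36.0% of the 25 cells without it, and in 69.4% and 41.9% of normal endothelial cells. Within vessel types these shares were 80.9% and 71.2% in capillary-like, 51.4% and 28.3% in arterial-like and 37.7% and 17.8% in venous-like cells. The part of vessel type in the pooled values was not tested.

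Across 22 points (the 20 endothelial clusters, the cancer-like cells and the strict mural cells), the level of Col4a1 as log2(CPM + 10) was most like that of Col4a2 (Pearson r = 0.98) among the members, followed by Sparc (0.83) and Lama4 (0.74), and least like that of Col18a1 (0.11). Outside the list, the 5 genes most like Col4a1 were Pcdh1 (0.85), BC028528 (0.84), Tax1bp3 (0.84), Hlx (0.80) and Trp53i11 (0.80), among 6226 genes with at least 50 CPM at 1 or more points. These correlations describe points that share 2 libraries and their depth, and Trp53i11 is one of the markers used to name tip-like cells.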

How the data were processed

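Whole-number UMI counts per gene and cell were deposited for each library. The study's methods say that Cell Ranger was run by the authors to map the reads and make these counts, with Seurat for later steps, and the submitters' processing notes name mm10. Those later steps removed unwanted cells, but the deposited tables still hold them. The version of Cell Ranger, the end of the transcript that was captured and the use of strand are not given in the sources used here. The counts were used as deposited (totals of 40914092 and 18980858 UMIs), and 0 columns of per-sample values were left unused.

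Cells were filtered and grouped as described above, by rules taken from an earlier analysis. The members, the marker and matrix lists and the rules were chosen with earlier results of these data known. Endothelial cells of each library were clustered with Seurat 5.3.0 in R 4.3.3 (20 principal components, 20 neighbours, resolution 0.8), leaving out the members and 5 matrix lists. A cluster was named by the list with most markers present in at least 25% of its cells and 2-fold above the rest, with at least 3 such markers, unless another list had as many or had more of them among the cluster's top 10 genes, or the cluster was shallow and had none of its own there, a rule set after the clusters had been seen. Scrublet, run in scanpy 1.11.5, called 0 doublets in either library and so had not worked, and its top 5% of scores was left out as an alternative.

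Sums of UMIs were given exact Poisson intervals, their ratios exact conditional binomial intervals and shares Clopper-Pearson intervals, all of them at 95% (Python 3.11.15, scipy 1.17.1). A difference of 2-fold or more was called, among genes listed in both tables (for comparisons between libraries) with at least 10 CPM in either group, and a count of 0 allows up to 3 UMIs. With 1 library for each condition, no test, SD or p-value was possible. From each other matrix list, the 4 genes with the largest ratio and at least 50 UMIs could be named. The ratio calculation was tested on simulated data. Gene positions are from GENCODE M21 (GRCm38) and promoters from RefSeq (GRCm38.p6).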

Additional observations from a re-analysis of the deposited data

How the results depend on the processing

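The 7 genes at 2-fold or more higher levels in tumor than in normal endothelium became 4 with cells under 5% mitochondrial UMIs, where Col4a1, Col18a1, Lamc1 and Sparc remained, 4 against capillary-like cells alone and 4 against these together with the unnamed clusters rich in capillary markers, both chosen after seeing the data. The other 12 alternatives gave 7 or 8. The count of lower genes was 0 under all 15. The single gene higher in mural cells, Col18a1, became 0 with cells under 5% mitochondrial UMIs, 0 without the top 5% of Scrublet scores, 0 without endothelial cells holding Myh11, Rgs5, Epcam or Cspg4, and 0 with all cells holding Rgs5 or Myh11, and stayed 1 under the other 8. The cause of these changes was not tested. The 3 lower genes were between 2 and 4. The counts in cancer-like cells were unchanged under all 9 alternatives, and 8 or 9 genes differed by 2-fold between vessel types under all 8. Of 150 ratios of single genes between the endothelia, 77 moved beyond their counting interval, and none past 2-fold changed sign. In thinned cancer-like cells Col15a1 had 0 UMIs and gave no finite ratio. No paired analysis was possible because each condition is 1 library, and no replicate could be left out. Few UMIs stand behind Col15a1 (4) and Lama4 (5) in cancer-like cells, Col15a1 in strict mural cells (13) and Col18a1 in capillary-like cells (23).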

Other observations

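The cancer-like and mural cells differed from endothelium in other matrix genes as well. In cancer-like cells over tumor endothelium, 9 of 26 other basement membrane components were tested, 2 of them were 2-fold or more higher and 6 lower, against 16.5% and 20.9% of all tested genes. Col7a1, whose collagen anchors epithelia, was at 15.0 CPM in cancer-like cells and 0.859 CPM in tumor endothelium, and Vwa1 at 2.35 and 638 CPM. Of the receptors, Sdc2, a syndecan, was at 59.3 and 0.644 CPM, and the collagen receptor Ddr1 at 20.2 and 0.429 CPM, while Itga2 had 0 UMIs in cancer-like cells and 32.6 CPM in tumor endothelium. Esm1, an endothelial proteoglycan, was at 0.840 and 319.5 CPM. The lysyl hydroxylases differed in direction, with Plod2 at 114 and 11.4 CPM and Plod1 at 44.9 and 166 CPM.

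In mural cells over normal endothelium, 11 of the 14 interstitial matrix genes were 2-fold or more higher and 1 lower (13.4% and 14% of all tested genes were), and in the strict mural cells 11 and 0 (14.8% and 18.6%). Col3a1 was at 302 CPM in the mural cells, 776 CPM in the strict ones and 16.8 CPM in endothelium, and it is also one of the fibroblast markers, whose sums are given above and whose part was not tested. Col4a5, a chain of another form of collagen IV, was at 44.8, 44.9 and 1.63 CPM in the same order. Itga7, a laminin-binding integrin subunit of muscle, was at 80.4, 181 and 2.78 CPM. The endothelial genes Esm1 (14.5, 1.73 and 301 CPM) and Mmrn2 (47.6, 5.18 and 392 CPM) were lower in both mural groups. Lamb3, a laminin chain of epithelia, was at 28.0, 6.04 and 1.05 CPM, and the sum of 9 epithelial markers was 4342 CPM in the mural and 159.6 CPM in the strict mural cells, a low sum that the rule for the strict group set in part, since it used 5 genes of this list.

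Across the same 22 points, the genes outside the list whose levels were most like those of Col18a1 were Mmp14 (r = 0.86), which encodes a membrane-bound matrix metalloproteinase, Phlda3 (0.86) and Parl (0.85), and the most alike member was Lamc1 (0.66). These genes were chosen after their values were seen, and the correlations are descriptions of points that share 2 libraries.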
